A study of Mus musculus with 8 samples.

Results

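Protein arginine methyltransferases transfer methyl groups from S-adenosylmethionine to arginine side chains of histones and of many RNA-binding proteins. The members were picked by gene symbol, with earlier results of these data known: Prmt1, Prmt2, Prmt3, Carm1 (also called Prmt4), Prmt5, Prmt6, Prmt7 and Prmt9. All 8 were found among the 21757 genes of a mouse count table and, as human symbols, among the 60237 genes of the knockdown files. The mouse table lists Prmt9 under its older name Prmt10. All 8 members also passed the filter on low counts in both experiments.

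The libraries were made from polyadenylated RNA of intestinal organoids, which are epithelial cultures grown in a gel, as 2 experiments of 2 groups and 2 libraries per group. The genotype experiment compared wild-type (WT) mouse small intestinal organoids with Ctnnb1-ex3 organoids. That name usually denotes a beta-catenin allele that lacks exon 3 and so makes a protein that escapes phosphorylation and destruction. WT organoids were grown with Wnt3a, R-spondin1, Noggin and EGF, whereas Ctnnb1-ex3 organoids received Noggin and EGF only, so that allele and medium cannot be told apart. The knockdown experiment compared a scrambled short hairpin (sh-scramble) with a hairpin against Prmt1 (sh-Prmt1). Its files hold human genes only, although the labels give mouse organoids. Not given in the sources used here are the genotype and medium of those cultures, the delivery of the hairpins, and the driver that removed exon 3. The series title places PRMT1 in WNT-driven colorectal cancer, and the comparisons ask how the enzyme family differs between the 2 genotypes and after loss of its main member.

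Depth in the genotype experiment was 4631527 and 2951887 counts for WT and 6015933 and 3683169 for Ctnnb1-ex3, against 39602913 to 53187068 estimated counts in the knockdown libraries. Levels are CPM, counts relative to library size with TMM scaling, unless another unit is named. A count of 3, taken as the floor of detection, was worth 0.499 to 1.02 CPM in the first experiment and 0.0564 to 0.0758 CPM in the second, counting error only. The 7 epithelial markers summed to 2170 to 2710 CPM in WT and 1550 to 2090 CPM in Ctnnb1-ex3 (Vil1 called lower), and to 2760 to 2810 CPM in sh-scramble and 3370 to 3440 CPM in sh-Prmt1 (EPCAM and CDX1 called higher). The part of these markers in the members' differences was not tested. Axin2 and Lgr5, targets of WNT signalling, stood at 12 to 15.6 CPM in WT and 131 to 230 CPM in Ctnnb1-ex3. In the second Ctnnb1-ex3 library Gzma, a gene of cytotoxic lymphocytes, stood at 28.3 CPM, against at most 0.38 CPM in the other genotype libraries, so results are also given without that library.

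The family is divided by the product its members make. Type I enzymes (PRMT1, PRMT2, PRMT3, CARM1 and PRMT6) place both methyl groups on the same nitrogen and give asymmetric dimethylarginine. PRMT1 makes most of it in mammalian cells. Type II enzymes (PRMT5 and PRMT9) place a methyl group on each of the terminal nitrogens and give symmetric dimethylarginine, while PRMT7, the type III enzyme, makes monomethylarginine only.

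In mm10, Prmt1 (ENSMUSG00000109324.2) lies on chromosome 7 from 44975989 to 44986568, minus strand, and Prmt5 (ENSMUSG00000023110.12) on chromosome 14 from 54507187 to 54517525, minus strand. Carm1 (ENSMUSG00000032185.15) lies on chromosome 9 from 21546894 to 21592623, plus strand. Stretches of the promoter windows of Prmt1 (chr7:44986569-44986670) and Prmt5 (chr14:54517526-54517720) are shown because these genes were called higher in Ctnnb1-ex3 organoids. Each is only the part of the window upstream of the gene's outermost annotated exon, since some transcripts begin upstream of the start that sets the window. They come from RefSeq on GRCm38.p6, written 5′ to 3′ on the gene's strand, with CACGTG (the E-box bound by MYC and related factors) and CCAAT or its reverse ATTGG in capitals.
Prmt1: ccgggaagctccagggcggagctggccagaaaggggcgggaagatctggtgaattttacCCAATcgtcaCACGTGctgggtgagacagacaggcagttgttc
Prmt5: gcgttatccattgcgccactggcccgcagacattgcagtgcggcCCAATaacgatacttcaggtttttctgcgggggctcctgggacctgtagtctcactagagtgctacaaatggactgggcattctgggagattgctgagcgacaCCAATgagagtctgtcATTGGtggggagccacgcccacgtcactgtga
The table held a 300-base window, from 250 bases before to 50 after the start, for 7 of the 8 members, all but Carm1. The printed stretches hold 1 of the 3 CCAAT matches of the Prmt1 window and 3 of the 4 of the Prmt5 window. CACGTG was present once in the windows of Prmt1 and Prmt3, and in 7.15% of all 32851 windows. CCAAT on either strand occurred 3 times in the window of Prmt1 and 4 times in that of Prmt5, against 3.37% of all windows with at least 3 and 1.06% with at least 4. The core CTTTGA, or its reverse TCAAAG, to which TCF and LEF factors bind, was in 0 of the 7 windows and in 16% of all windows. The 3 motifs do not overlap in letters, and each match is a description of the sequence only.

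In Ctnnb1-ex3 organoids, 3 of the 8 transcripts were called higher than in WT: Prmt1 and Carm1 about equally, and Prmt5 by a smaller margin. No member was called lower, and 5 were not called. Over all 12976 genes tested, 40.8% were called, made up of 20.3% higher and 20.5% lower. A call is an adjusted p under 0.05 by edgeR's quasi-likelihood test with p-values adjusted over all tested genes by the Benjamini-Hochberg method, and adjusted p has that meaning throughout. The members' share, 37.5%, was therefore near that of all genes. Their median log2 fold change was 0.42, against 0.02 over all genes. Leaving out WT replicate 1 or WT replicate 2 left Prmt1 as the 1 member called, and 2668 and 2231 genes called in place of 5291.

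Prmt1, the main type I enzyme, had 44 and 30 counts in the WT libraries and 341 and 126 in the Ctnnb1-ex3 libraries. These correspond to 10.1 and 11.4 CPM against 51.2 and 32.4 CPM. Both mutant libraries lay above both WT libraries, and the mutant pair was spread more widely. The means were 10.8 ± 0.906 and 41.8 ± 13.4 CPM (SD, n = 2), a 3.92-fold difference (95% interval 2.32 to 6.62), and the log2 fold change was 1.97 ± 0.33 (SE, edgeR adjusted p = 0.00287). By size of log2 fold change Prmt1 ranked 801 from the top of the 12976 genes. It was called under all 12 settings tried, with log2 fold changes of 1.52 to 2.28. Without the library with Gzma, the log2 fold change was 2.28. Where a library is left out, its group has 1 library, which is assumed to vary like the other group. The spread behind any adjusted p then comes from the other group's pair, drawn for each gene towards the trend over all genes. In bulk libraries such as these, fewer cells of a type and less RNA per cell cannot be told apart.

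Carm1, a type I enzyme and coactivator of nuclear receptors, was the least abundant member in WT, at 17 and 12 counts in the WT pair against 130 and 53 in the mutant pair. In CPM these were 3.91 and 4.56 against 19.5 and 13.6, without overlap. The log2 fold change was 1.98 ± 0.45 (SE, edgeR adjusted p = 0.0101), 3.94-fold with a 95% interval of 1.93 to 8.06. The call was lost when WT replicate 1 was left out (log2 fold change 1.86, adjusted p = 0.0901), likewise WT replicate 2 (2.12, adjusted p = 0.0698). Without the library with Gzma the log2 fold change was 2.23. The 3′ end of Carm1 overlaps Yipf2 on the opposite strand, and Smart-seq2 in its standard form keeps no strand, so reads in that stretch could belong to either gene. Yipf2, at 132 and 66 counts against 177 and 57, was not called (log2 fold change -0.42, adjusted p = 0.365).

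Prmt5, the main type II enzyme, which methylates Sm proteins of the spliceosome, was the most abundant member in CPM. It stood at 95.8 and 98.9 CPM in WT and 136 and 147 CPM in Ctnnb1-ex3. The groups did not overlap and were 1.45-fold apart (95% interval 1.18 to 1.79), with a log2 fold change of 0.54 ± 0.13 (SE, edgeR adjusted p = 0.0136). The call was lost with DESeq2 (log2 fold change 0.51, adjusted p = 0.0549), when WT replicate 1 was left out (0.52, adjusted p = 0.151) and likewise WT replicate 2 (0.60, adjusted p = 0.115). Without the library with Gzma the log2 fold change was 0.50. The authors' deposited values for Prmt5 are a log2 fold change of 0.53 and their own adjusted p of 0.0404, and their processing notes name DESeq2.

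The remaining type I members were not called. Prmt6, a nuclear enzyme that methylates histone H3, stood at 22.1 and 14.5 CPM in WT and 41.3 and 24.9 CPM in Ctnnb1-ex3. Its groups did not overlap, but each pair was widely spread, and the log2 fold change was 0.85 with a 95% interval of 0.04 to 1.66 (adjusted p = 0.0874). Without Ctnnb1-ex3 replicate 2 the value was 1.16, where among replicates only the WT pair informs the spread. Prmt2, a weak type I enzyme, was the only member with a higher mean in WT, at 23.7 and 14.8 CPM against 13.2 and 11.3 CPM, apart from Prmt9, whose means were nearly equal. Its log2 fold change was -0.66 (95% interval -1.53 to 0.21, adjusted p = 0.192). Prmt3, a cytosolic enzyme that methylates the ribosomal protein RPS2, stood at 50.4 and 57.1 CPM against 65.2 and 62.2 CPM, with a log2 fold change of 0.25 (95% interval -0.12 to 0.62, adjusted p = 0.238).

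Neither the second type II enzyme nor the type III enzyme was called. Prmt9, which methylates the splicing factor SF3B2, stood at 44.2 and 35 CPM in WT and 49.7 and 29.0 CPM in Ctnnb1-ex3, so that the WT libraries lay between the mutant ones. Its difference was between -0.67 and 0.67 on the log2 scale at 95% (adjusted p = 0.998). Prmt7 stood at 78.0 and 78.4 CPM in WT and 86.6 and 105 CPM in Ctnnb1-ex3. The groups did not overlap, and the log2 fold change was 0.29 (95% interval -0.05 to 0.62, adjusted p = 0.152). With upper-quartile factors Prmt7 passed the test (0.52, adjusted p = 0.0209). With 1 library left out its log2 fold change was 0.16 to 0.42. The highest value came without Ctnnb1-ex3 replicate 1, which leaves the library with Gzma as the only mutant library.

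**Figure D1:**
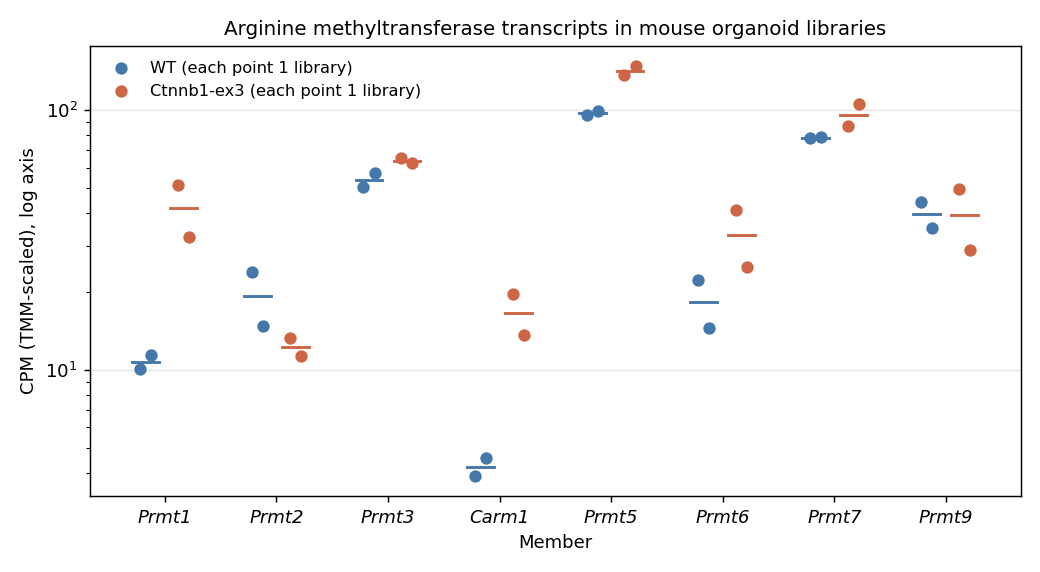
Level of each mouse member in CPM on a log axis, with 1 point per library and a bar at the mean of each group of 2 libraries. Prmt1 and Carm1 show the widest gaps between WT and Ctnnb1-ex3, at 10.8 against 41.8 CPM and 4.24 against 16.6 CPM, and the groups of Prmt9 overlap.

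Fold changes in this experiment followed abundance. Among the 1903 genes whose average log2 CPM lay within 0.5 of that of Prmt1, the median log2 fold change was 0.39 and 30% were called higher. Around Carm1 the median was 0.59, with 27.6% called higher. Around Prmt5 it was -0.25, with 11.6% called higher. An offset that follows abundance, added after seeing the data, therefore lowered the log2 fold change of Prmt1 to 1.52 (adjusted p = 0.00461) and of Carm1 to 1.38 (adjusted p = 0.0348), and raised that of Prmt5 to 0.78 (adjusted p = 0.00189). For Carm1 this moved the fold by more than 1.5 times. Under the same offset Prmt2 was called lower, with a log2 fold change of -1.15 (adjusted p = 0.0318), so 4 members were called. Genes of proliferation also differed: the 5 markers summed to 1090 to 1110 CPM in WT and 1370 to 1630 CPM in Ctnnb1-ex3, with Mki67, Top2a and Mcm2 called higher. The 9 immune markers summed to 19.0 to 28.8 CPM and 13.4 to 54.2 CPM, and the 7 markers of stroma and endothelium to 11 to 27.9 CPM and 31.3 to 42.1 CPM. Only 3 of the 9 and 2 of the 7 passed the filter on low counts, and none of those was called. Gzma, Ptprc, Cd3e and Cd3g, highest in the second Ctnnb1-ex3 library, were not tested. The part of these markers in the members' differences was not tested.

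To set the members in order, CPM was divided by the kilobases of annotated exon of each gene. In WT the order of mean levels in CPM per kilobase was Prmt5 (24.6 ± 0.559, SD, n = 2), Prmt7 (12.8 ± 0.0363), Prmt3 (8.96 ± 0.783), Prmt9 (6.97 ± 1.15), Prmt2 (5.70 ± 1.86), Prmt6 (4.36 ± 1.29), Prmt1 (3.14 ± 0.265) and Carm1 (0.874 ± 0.0949). The neighbours Prmt9 and Prmt2 overlapped between libraries, as did Prmt2 and Prmt6, while the other neighbours did not. In Ctnnb1-ex3, Prmt1 had moved from place 7 to place 3, at 12.2 ± 3.90 CPM per kilobase, after Prmt5 at 35.8 ± 2.00 and Prmt7 at 15.6 ± 2.11, and its libraries, at 15.0 and 9.45, overlapped those of Prmt3, at 10.9 and 10.4, as well as those of Prmt7 and Prmt6. Carm1 remained last at 3.42 ± 0.863. The share of Prmt1 in the sum over the family was 4.28% and 5.08% in the WT libraries and 14.8% and 10.3% in the Ctnnb1-ex3 libraries, and that of Prmt5 was 35% and 38.1% against 34.1% and 40.7%.

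In the knockdown experiment the targeted transcript was examined first. PRMT1 (ENSG00000126457.21) had 1373 and 1451 estimated counts under the scrambled hairpin and 128 and 190 in the sh-Prmt1 libraries, or 37.0 and 34.2 CPM against 2.99 and 3.35 CPM. The libraries therefore followed their hairpin labels, which does not settle the species of the cultures. PRMT1 was 11.2-fold lower, with a log2 fold change of -3.48 ± 0.12 (SE, 95% interval -3.75 to -3.22, edgeR adjusted p = 1e-06). Its log2 fold change ranked 21 from the lowest of the 18442 genes tested. In the authors' deposited table its log2 fold change was -3.37. The processed pseudogene PRMT1P1 had at most 1 estimated count in each library, so little of the PRMT1 signal was assigned to it.

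Beside PRMT1, 3 further members were called lower in sh-Prmt1 libraries: PRMT3, PRMT5 and PRMT6. None was called higher, and PRMT2, CARM1, PRMT7 and PRMT9 were not called. Of all genes tested, 41.0% were called, 20.4% lower and 20.6% higher, so the members' share of 50%, with the targeted gene among them, was not far from that of all genes. The share called rose with abundance. Within 0.5 of the average log2 CPM of CARM1 it was 27.9% (12.1% lower), and around PRMT5 62.1% (36.9% lower). The median log2 fold change was -0.38 over the members and 0.03 over all genes. All 4 calls were kept in each of the 12 settings tried. The 5 proliferation markers summed to 1840 to 1910 CPM in sh-scramble and 1340 CPM in each sh-Prmt1 library, with MKI67, TOP2A, CCNB1 and PCNA called lower, and their part in the members' differences was not tested. Immune and stromal markers were near 0 in all 4 libraries, with sums of at most 4.62 and 1.61 CPM. GZMA was at 0 in each, and CD68 was the 1 marker called, higher in sh-Prmt1.

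PRMT3 showed the largest difference after PRMT1. It stood at 63.6 and 66.7 CPM under the scrambled hairpin and 22.9 and 25.5 CPM in sh-Prmt1, with each pair close together and no overlap. The means were 65.2 ± 2.22 and 24.2 ± 1.82 CPM (SD, n = 2), 2.69-fold lower, and the log2 fold change was -1.43 ± 0.09 (SE, edgeR adjusted p = 7.2e-06). PRMT5 stood at 77.8 and 93.5 CPM against 44.7 and 42.4 CPM, 1.97-fold lower (log2 fold change -0.98 ± 0.10, SE, edgeR adjusted p = 8.13e-05). Reads of PRMT5 and of its antisense partner PRMT5-AS1 cannot be told apart without strand. PRMT5-AS1 had 227 to 444 estimated counts and was not called (log2 fold change 0.11, adjusted p = 0.687), although the authors' deposited table gives it 0.67 with an adjusted p of 0.0181. PRMT6 stood at 24.7 and 24.8 CPM against 13.1 and 17 CPM, 1.64-fold lower (log2 fold change -0.71 ± 0.13, SE, edgeR adjusted p = 0.00158). In the authors' deposited table these 3 genes have adjusted p of 7.29e-23, 1e-13 and 0.000114, and are marked as not changed because their log2 fold changes did not pass a limit of 1.5 in size.

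The other members did not pass the test. PRMT2 stood at 25.7 and 17.3 CPM in sh-scramble and 27.3 and 30.3 CPM in sh-Prmt1, with no overlap but a wide control pair. Its log2 fold change was 0.42 (95% interval 0.07 to 0.78, adjusted p = 0.0583). Without sh-scramble replicate 1 the value was 0.71, and without sh-scramble replicate 2 it was 0.17. In both cases, among replicates, only the sh-Prmt1 pair informs the spread. CARM1 was the least abundant member, with 45 and 79 estimated counts against 79 and 72, and its groups overlapped. The 95% interval of its log2 fold change was -0.71 to 0.72, and the sh-scramble libraries alone stood at 1.21 and 1.86 CPM. PRMT7 stood at 7.50 and 6.77 CPM against 8.81 and 8.54 CPM (log2 fold change 0.28, 95% interval -0.02 to 0.58, adjusted p = 0.121), and with an offset for effective length the value was 0.04. PRMT9 stood at 8.74 and 7.78 CPM against 8.29 and 7.56 CPM, with an interval of -0.37 to 0.25 (adjusted p = 0.76).

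**Figure D2:**
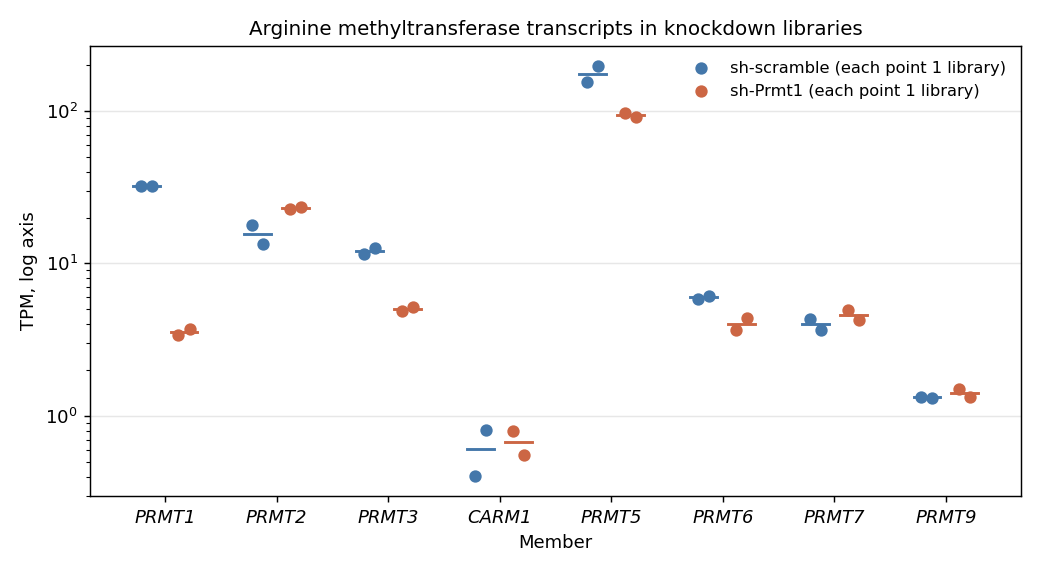
Level of each human member in TPM on a log axis, with 1 point per library and a bar at the mean of each group of 2 libraries. PRMT1 stands near 32.1 TPM in both sh-scramble libraries and at 3.39 and 3.71 TPM in the sh-Prmt1 libraries, and PRMT3, PRMT5 and PRMT6 lie lower as well.

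In TPM, which divides by effective transcript length, the mean levels in sh-scramble were in the order PRMT5 (176 ± 28.9, SD, n = 2), PRMT1 (32.1 ± 0.0467), PRMT2 (15.7 ± 3.23), PRMT3 (12.1 ± 0.719), PRMT6 (6.0 ± 0.174), PRMT7 (4.0 ± 0.458), PRMT9 (1.33 ± 0.0141) and CARM1 (0.610 ± 0.289). No pair of neighbours overlapped between libraries. The high TPM of PRMT5 goes with an effective length of only 279 to 320 bases, against 575 to 645 for PRMT1 and 3057 to 3237 for PRMT3, and in counts alone PRMT3 exceeded PRMT1. In sh-Prmt1, PRMT1 was sixth of 8 at 3.55 ± 0.230 TPM. Its share of the family's TPM was 14.0% and 12.1% in sh-scramble, against 2.45% and 2.77% in sh-Prmt1. The share of PRMT5 was 67.8% and 73.6% against 69.7% and 68.0%. The family summed to 229 and 266 TPM in sh-scramble and 138 and 134 TPM in sh-Prmt1, and in TPM most of the difference was that of PRMT5. This rests on its short effective length. In CPM the means of the called members fell from 85.6 to 43.6 for PRMT5, 65.2 to 24.2 for PRMT3, 35.6 to 3.17 for PRMT1 and 24.8 to 15.1 for PRMT6.

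**Figure D3:**
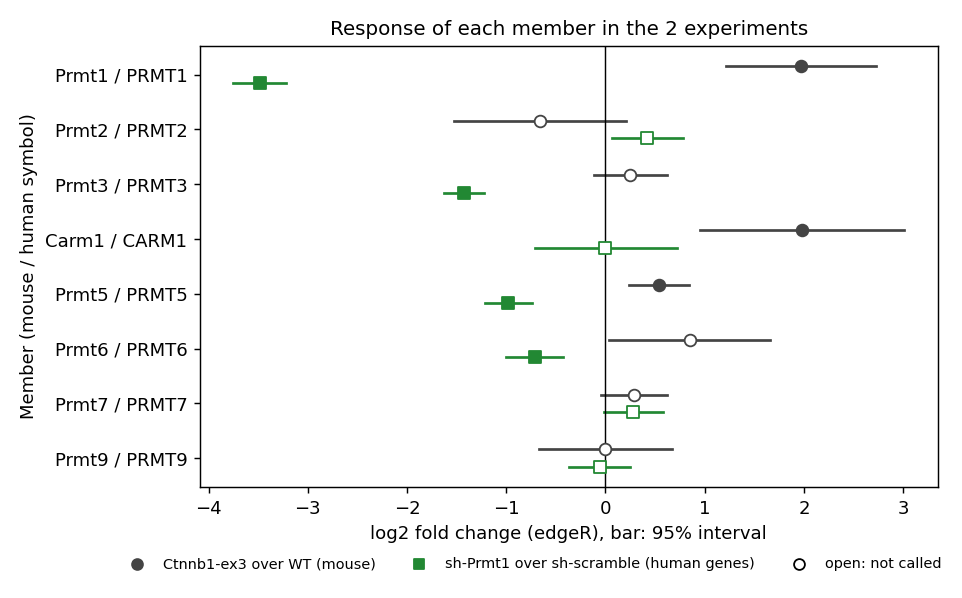
Log2 fold change of each member in each experiment with its 95% interval from edgeR, filled where called and open where not called. Prmt1 and Prmt5 lie above 0 in Ctnnb1-ex3 over WT (1.97 and 0.54) and their human counterparts below 0 in sh-Prmt1 over sh-scramble (-3.48 and -0.98). PRMT1 is the target of the hairpin.

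Side by side, the members moved by different amounts in the 2 experiments, which share no library and list genes of different species. Prmt1 and Prmt5 were called in both, higher in Ctnnb1-ex3 and lower in sh-Prmt1. PRMT1 is the target of the hairpin, so its lower call is a check of the knockdown and not a response. Carm1 was called in the genotype experiment only, and PRMT3 and PRMT6 in the knockdown experiment only. Differences between the experiments were not tested, since the genes belong to different species and separate tables. Prmt2, Prmt7 and Prmt9 were called in neither of the main edgeR fits. Some alternative settings called Prmt2, Prmt3, Prmt6 or Prmt7 between genotypes and PRMT2 after knockdown.

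**Figure D4:**
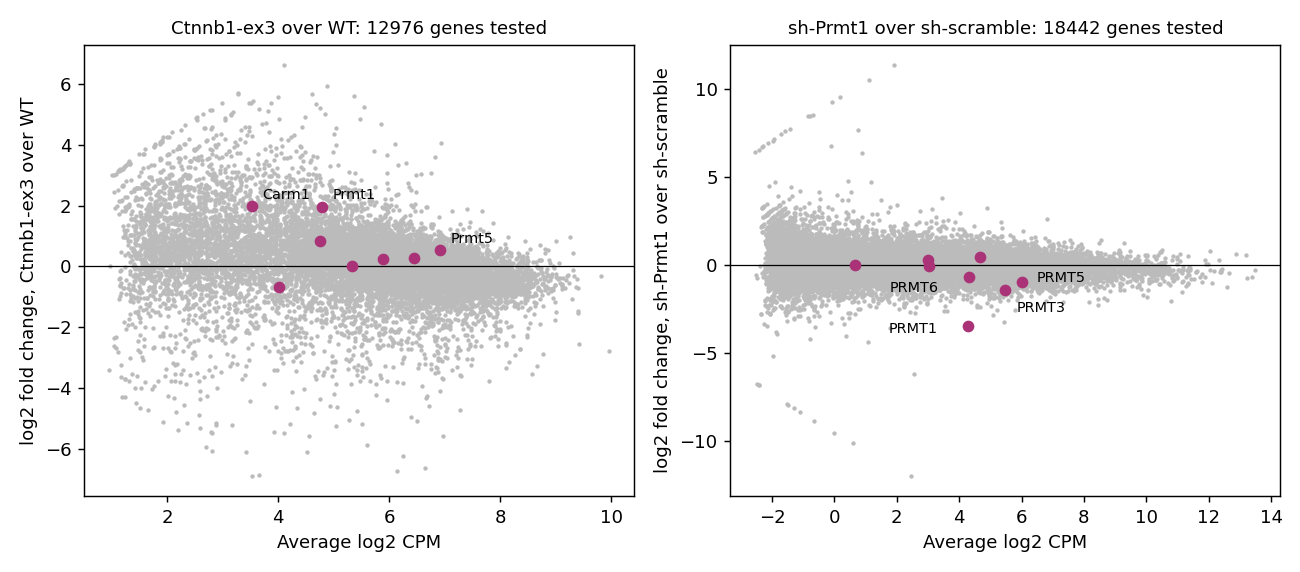
Log2 fold change against average log2 CPM for every gene tested (grey, 1 point per gene), with the 8 members in purple and the called ones named. The left panel shows the genotype experiment, in which Prmt1 ranked 801 from the top of 12976 genes, and the right panel the knockdown experiment, in which PRMT1 lay among the lowest of 18442 genes.

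The genes whose pattern was most like that of Prmt1 were taken as the 5 with the smallest root mean square distance of centred log2 CPM over the 4 libraries of an experiment. In the genotype experiment these included Ung (distance 0.0216), which encodes uracil-DNA glycosylase, 4930422G04Rik (0.0264), Mansc4 (0.0542) and, as the fifth of 12975 genes, Carm1 (0.0572). Mansc4 stood at only 0.691 and 0.761 CPM in WT, near the floor of detection. Ung stood at 15.9 and 18.3 CPM in WT and 77.7 and 50.1 CPM in Ctnnb1-ex3, the first mutant library being higher as for Prmt1. Prmt6 ranked 1988, Prmt5 3255 and Prmt2 10263 in the same order. In the knockdown experiment the nearest genes were LINC01556 (0.184), EPHB3 (0.192), AC025154.2 (0.252), AC114490.1 (0.259) and AL603962.1 (0.268). Of these, EPHB3, a receptor of ephrin-B ligands in intestinal crypts, was well expressed, at 69.1 and 87.5 CPM in sh-scramble and 7.54 and 8.60 CPM in sh-Prmt1 (log2 fold change -3.27, adjusted p = 1.62e-06). LINC01556, AC114490.1 and AL603962.1 stood at no more than 0.674 CPM in sh-scramble and 0.0176 CPM in sh-Prmt1. Their log2 fold changes, -5.16, -6.83 and -7.91, differed from the -3.48 of PRMT1, so their nearness rests on very low levels. PRMT3 ranked 398 of 18441 genes. With 4 libraries such a pattern is little more than the difference between the groups.

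Further arginine methyltransferases outside the 8 members differed little. Prmt8, a brain enzyme, had at most 3 counts in each mouse library and PRMT8 at most 5.083 estimated counts in each human library, and neither was tested. Ndufaf7, a mitochondrial enzyme, and Mettl23 were not called between genotypes. NDUFAF7 (log2 fold change -0.29, adjusted p = 0.0469) and METTL23 (-0.32, adjusted p = 0.0178) were called lower in sh-Prmt1, which makes 2 of the 2 tested, beside 20.4% of all genes. The call of NDUFAF7 held in 4 of 12 settings and was lost when any library but sh-scramble replicate 2 was left out (-0.32 to -0.20), and that of METTL23 held in 8 and was lost when any library but sh-scramble replicate 1 was left out (-0.33 to -0.26).

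Among the 4 partners of the PRMT5 complex, 1 was called between genotypes and 0 after knockdown, beside 40.8% and 41.0% of all genes tested. Riok1, an adaptor that brings substrates to PRMT5, stood at 62.2 and 54.4 CPM in WT and 99.5 and 82.7 CPM in Ctnnb1-ex3 (log2 fold change 0.64, adjusted p = 0.0141), a call lost when WT replicate 1 (0.75, adjusted p = 0.0606) or WT replicate 2 (0.59, adjusted p = 0.131) was left out. Wdr77, the obligate partner of PRMT5, was not called (0.19, adjusted p = 0.341), nor was Clns1a, an adaptor for Sm proteins (-0.32, adjusted p = 0.0958). With the offset that follows abundance Wdr77 was called higher (0.49, adjusted p = 0.0401). After knockdown, WDR77 (-0.13), CLNS1A (0.02) and RIOK1 (0.01) stood within 0.13 of 0 on the log2 scale, beside the lower PRMT5.

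Of the 4 binding partners of PRMT1, BTG2 showed the largest difference in the knockdown experiment. BTG2, an antiproliferative protein that binds PRMT1, stood at 3.70 and 4.25 CPM in sh-scramble and 18.4 and 18.2 CPM in sh-Prmt1 (log2 fold change 2.20, adjusted p = 5.95e-06). Its relative BTG1 was also higher (0.46, adjusted p = 0.00474), whereas ERH, a small conserved protein of RNA processing, fell from 235 and 314 CPM to 141 and 131 CPM (log2 fold change -1.01, adjusted p = 0.000241). In Ctnnb1-ex3 organoids Btg1 was the single partner called, beside 40.8% of all genes. Its level was lower, at 197 and 228 CPM against 296 and 328 CPM in WT (-0.55, adjusted p = 0.0309). This call was lost with upper-quartile factors and with the offset that follows abundance (-0.12, adjusted p = 0.434). It was also lost when WT replicate 1 (-0.62, adjusted p = 0.145), WT replicate 2 (-0.44, adjusted p = 0.303) or Ctnnb1-ex3 replicate 1 (-0.45, adjusted p = 0.103) was left out. Btg2 was not called there (-0.33, adjusted p = 0.127).

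Genes of methyl donor supply were called lower in 4 of 6 cases after knockdown and higher in 0, beside 20.4% of all tested genes called lower. Among genes near PRMT5 in abundance, 36.9% were called lower. The median log2 fold change of the 6 was -0.44, against 0.03 over all genes. MTAP, which salvages methionine from methylthioadenosine, an inhibitor of PRMT5, fell from 41.2 and 41.0 CPM to 12 and 13.9 CPM (log2 fold change -1.66, adjusted p = 6.19e-06). AMD1, which makes the aminopropyl donor of polyamine synthesis, fell from 342 and 310 CPM to 174 and 189 CPM (-0.85, adjusted p = 0.000104). MAT2A, which synthesises S-adenosylmethionine, fell from 161 and 159 CPM to 105 and 113 CPM (-0.56, adjusted p = 0.000685), and its regulatory subunit MAT2B was lower by a smaller margin (-0.31, adjusted p = 0.0178). The MAT2B call was lost with effective lengths, with the offset that follows abundance (-0.18, adjusted p = 0.116) and when any library but sh-scramble replicate 1 was left out (-0.33 to -0.24), which leaves 3 of 6. AHCY, which clears the product inhibitor S-adenosylhomocysteine, was not called (0.21, adjusted p = 0.0801), but was called higher with effective lengths (0.27, adjusted p = 0.0434) and with the offset that follows abundance (0.36, adjusted p = 0.00722). Between genotypes 1 of 5 tested genes was called in each direction, beside 20.3% of all genes higher and 20.5% lower. These were Mtap at 79.9 and 67.0 CPM against 104 and 97.1 CPM (0.45, adjusted p = 0.0383) and Mat2b at 199 and 209 CPM against 135 and 133 CPM (-0.61, adjusted p = 0.0108). The Mat2b call was lost with the offset that follows abundance (-0.25, adjusted p = 0.155), while with that offset Mat2a (0.49, adjusted p = 0.0099) and Ahcy (0.45, adjusted p = 0.0187) were called higher. Leaving out WT replicate 1 or WT replicate 2 ended the calls of Mtap (0.59 and 0.37, adjusted p = 0.104 and 0.308) and of Mat2b (-0.65 and -0.54, adjusted p = 0.0824 and 0.148). The Mtap call was also lost with DESeq2 (0.43, adjusted p = 0.164), without a filter (0.48, adjusted p = 0.0981) and with limma-voom (0.43, adjusted p = 0.0618), and that of Mat2b with upper-quartile factors (-0.37, adjusted p = 0.053).

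Of the 4 readers of methylarginine, proteins with a Tudor domain, 1 was called in Ctnnb1-ex3 and 2 after knockdown, beside 40.8% and 41.0% of all genes. Smn1, which binds methylated Sm proteins, stood at 41.9 and 42.6 CPM in WT and 85.4 and 81.9 CPM in Ctnnb1-ex3 (log2 fold change 0.99, adjusted p = 0.00185). In sh-Prmt1, SMN1 stood at 18.4 and 21.0 CPM against 49.6 and 46.4 CPM (-1.28, adjusted p = 1.63e-05), but the human gene has a near-identical copy, SMN2, between which reads can be split, so this value is uncertain. TDRD3, a reader of asymmetric marks, fell from 15.7 and 15.1 CPM to 7.19 and 6.69 CPM (-1.15, adjusted p = 7.92e-05). Of the 8 genes of methylarginine breakdown and deimination, 5 were tested between genotypes and 1 called, and 4 after knockdown and 2 called. These compare with 40.8% and 41.0% of all genes. DDAH2 was called higher in both experiments. Ddah2 stood at 3.91 and 1.90 CPM in WT and 19.8 and 23.1 CPM in Ctnnb1-ex3 (2.81, adjusted p = 0.00292, moved to 3.48 without WT replicate 1 and to 2.22 with the offset that follows abundance), and DDAH2 at 11.7 and 10.4 CPM in sh-scramble and 23.7 and 21.2 CPM in sh-Prmt1 (1.02, adjusted p = 0.000105). JMJD6 was called higher after knockdown (0.46, adjusted p = 0.0119), but not without sh-scramble replicate 2 (0.37, adjusted p = 0.0588) or sh-Prmt1 replicate 1 (0.39, adjusted p = 0.0768).

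Of 16 genes that encode substrates of asymmetric dimethylation, 11 were called lower and 2 higher in sh-Prmt1, against 20.4% of all tested genes lower and 20.6% higher. Among genes near PRMT5 in abundance, 36.9% were called lower and 25.2% higher. Shares at the abundance of each substrate were not computed. The median log2 fold change of the 16 was -0.34, against 0.03 over all genes. G3BP1, a stress granule protein, fell from 310 and 319 CPM to 110 and 125 CPM (-1.42, adjusted p = 9.15e-06). TAF15 (-0.72, adjusted p = 0.00225), SERBP1 (-0.70, adjusted p = 0.000195) and the mRNA export factor ALYREF (-0.62, adjusted p = 0.00257) were lower as well. The 2 called higher, named after their values were seen, were TP53BP1 (0.44, adjusted p = 0.01) and RPS2 (0.36, adjusted p = 0.0156), the latter a substrate of PRMT3. In Ctnnb1-ex3, 4 of the 16 were called higher and 0 lower, beside 20.3% and 20.5% of all genes. The 4 were Mre11 (1.23, adjusted p = 0.0024), listed under its older name Mre11a, Gar1 (1.02, adjusted p = 0.00341), Trp53bp1 (0.96, adjusted p = 0.0108) and Fbl (0.46, adjusted p = 0.0422). The median there was 0.16, and the call of Fbl was lost with DESeq2 (0.44, adjusted p = 0.131) and when WT replicate 1 (0.42, adjusted p = 0.254) or WT replicate 2 (0.54, adjusted p = 0.171) was left out. That of Trp53bp1 was lost without WT replicate 2 (0.72, adjusted p = 0.0732).

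Of 6 substrates of symmetric dimethylation, Snrpd3 was called lower in Ctnnb1-ex3 (-0.56, adjusted p = 0.0304). This call was lost with upper-quartile factors and with the offset that follows abundance (-0.33, adjusted p = 0.127). It was also lost when WT replicate 1 (-0.71) or WT replicate 2 (-0.37) was left out. After knockdown SNRPD1, an Sm protein, was called lower (-0.57, adjusted p = 0.00104) and LSM4 higher (0.48, adjusted p = 0.00374). Of all genes, 40.8% were called between genotypes and 41.0% after knockdown. Of 6 substrates of CARM1, the chromatin remodelling subunit Smarcc1 was called higher in Ctnnb1-ex3, at 281 and 291 CPM against 121 and 134 CPM (1.17, adjusted p = 0.00107). In sh-Prmt1, where 41.0% of all genes were called, 3 of 6 were called higher and 0 lower: the coactivators NCOA3 (0.74, adjusted p = 0.000261) and CREBBP (0.68, adjusted p = 0.000302), and SMARCC1 (0.49, adjusted p = 0.00167). Transcript counts carry no information on how far these proteins were methylated.

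**Figure D5:**
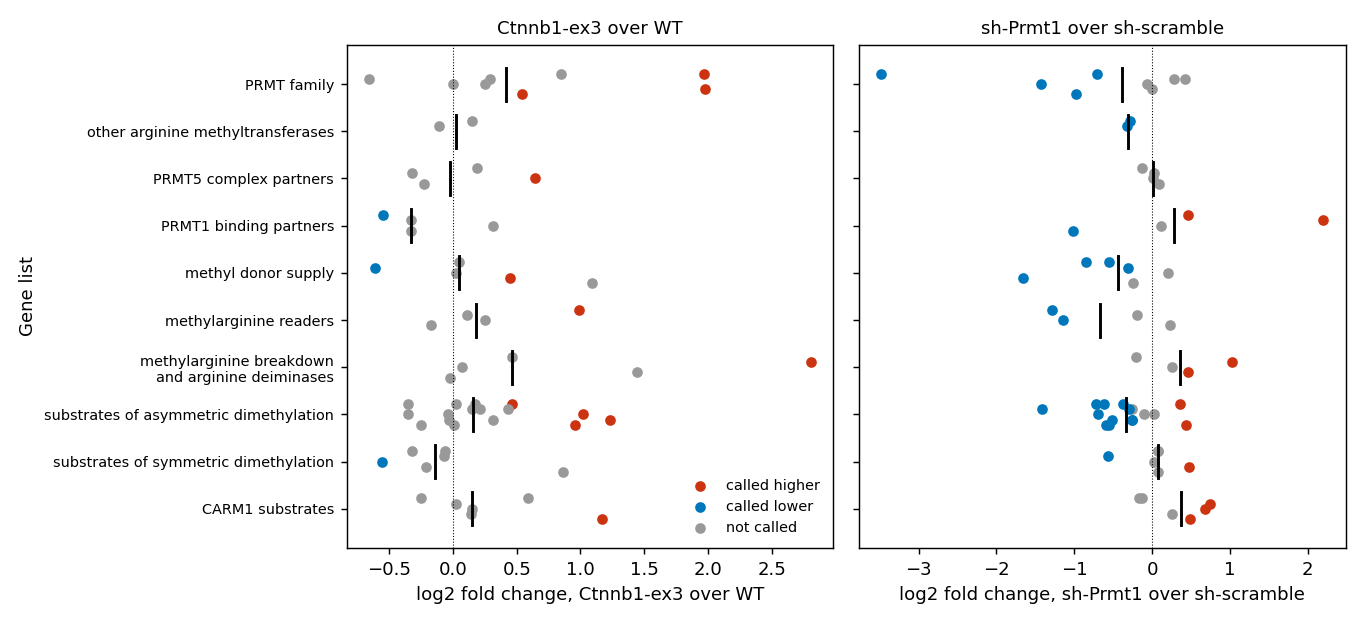
Log2 fold change of every tested gene of each list (1 point per gene, red called higher, blue called lower, grey not called), with a black bar at the list's median. In sh-Prmt1 over sh-scramble, 11 of the 16 substrates of asymmetric dimethylation are blue (median -0.34), and in Ctnnb1-ex3 over WT 4 of them are red (median 0.16).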

How the data were processed

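The genotype table holds counts deposited by the authors as whole numbers per mouse symbol. No value was below 1, so 1 may have been added to each, which no source states. The knockdown files hold estimated counts, TPM and effective lengths deposited by the authors as Salmon gene output, per the file headers. All 60237 identifiers there are human, although the labels give mouse, and the submitters' processing notes name mm10, Salmon and DESeq2 without versions. The authors' deposited tables also give log2 fold changes and adjusted p-values. Human sex-linked genes (169 identifiers) were left out. Estimated counts were rounded. The 2 experiments were fitted separately in R 4.3.3 by edgeR 4.0.16 (TMM, filterByExpr, two-sided quasi-likelihood test, Benjamini-Hochberg over all genes tested). Alternatives used DESeq2 1.42.0, limma 3.58.1 (voom), upper-quartile factors, no filter, a replicate block, 1 taken away from every genotype count, effective lengths, an offset that follows abundance, and 1 library left out with the same genes tested. The pipeline was tested on simulated data. Exon lengths and positions came from GENCODE vM21 (mm10).

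The family members and gene lists were chosen with earlier results of these data known. Named are the 8 members, Ctnnb1, Axin2 and Lgr5, up to 4 called genes per list by size of log2 fold change whose groups do not overlap, 7 genes always given (Wdr77, Clns1a, Riok1, Mat2a, Ahcy, Mtap, Btg2), and the 5 genes most like Prmt1 per experiment, 1 of which is not reported here. Ctnnb1 was not called in Ctnnb1-ex3 (-0.59, edgeR adjusted p = 0.0504), though it was called lower in 5 of 12 settings, and in sh-Prmt1 CTNNB1 (-0.72, adjusted p = 0.0054, and -0.51, adjusted p = 0.0531, without sh-Prmt1 replicate 2) and LGR5 (-0.68, adjusted p = 0.0007) were lower and AXIN2 (-0.10) was not called. Libraries of 1 group differed beyond counting noise (chi-square per degree of freedom of 3.85 to 30.32), so each counted as 1 replicate. The labels do not name separate cultures or animals for the replicates. A p-value thus weighs the difference between groups only against the spread of these libraries, which may be technical. With 2 libraries against 2, an exact permutation test of a single gene cannot go below p = 0.333.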

Additional observations from a re-analysis of the deposited data

How the results depend on the processing

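Limits are 2 libraries per group, few counts for Prmt1 and Carm1 in WT, and the choice of scaling. Genes called between genotypes numbered 2231 to 7290 with 1 library left out, against 5291, and members called 1 to 4, against 3. With upper-quartile factors 6 members were called (adding Prmt3, Prmt6 and Prmt7), where the median log2 fold change of all genes moved to 0.259 from 0.0225 and 68.0% of calls were higher, against 49.8%. Without a filter the knockdown median moved to 0.309. Same-numbered libraries did not deviate together over all genes (r = 0.0706 and -0.0512). That cannot exclude a pairing that touches only some genes, so whether the numbers pair libraries is not known. With a replicate block 6484 and 7084 genes and 4 and 5 members were called, against 5291, 7558, 3 and 4, adding Prmt6 and PRMT2. The block also called Clns1a (adjusted p = 0.027), Btg2 (0.0161) and Ctnnb1 (0.00048) lower and no longer called NDUFAF7 (0.0605). PRMT2 was also called with upper-quartile factors, without a filter and with limma-voom. Over the alternatives, 71 of 88 values of mouse members and 74 of 88 of human members kept direction and call.

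The call of Mansc4 was lost when WT replicate 1 or WT replicate 2 was left out, with the offset that follows abundance, with DESeq2 and without a filter. Values that changed sign all belong to genes not called, and the cause was not tested. Prmt9 (-0.00 as reported) gave 0.24 with upper-quartile factors, 0.03 without a filter, 0.01 with limma-voom, and -0.46 to 0.33 with 1 library left out. The offset that follows abundance gave 0.10 for Btg2, 0.03 for Clns1a and -0.04 for CARM1. Leaving out 1 library gave -0.06 to 0.18 for Mat2a and -0.20 to 0.22 for Ahcy, and DESeq2 gave -0.01 for Ahcy. CARM1 gave -0.02 with DESeq2, -0.04 without a filter, -0.03 with limma-voom, -0.01 with effective lengths, and -0.29 to 0.35 with 1 library left out. PRMT9 gave -0.14 to 0.01 with 1 library left out. CLNS1A gave -0.01 without a filter, -0.02 with effective lengths and -0.01 to 0.05 with 1 library left out. RIOK1 gave -0.01 with DESeq2, -0.02 without a filter and -0.04 to 0.06 with 1 library left out.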
